A study of Homo sapiens with 6 samples.

Results

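The dystrophin complex genes measured here are the 8 genes DMD, DAG1, SGCA, SGCB, SGCD, SGCE, SNTB1 and CAV3, taken by gene symbol from a table of 25702 genes. All 8 had a row and all 8 passed the filter on low values, among 15622 genes tested. The RNA came from RMS13, an established human cell line of rhabdomyosarcoma, a childhood tumour with features of skeletal muscle. A group of 3 libraries came from cells given a small interfering RNA (siRNA) against GLI1, called siGLI1, and a group of 3 from cells given a non-targeting siRNA, called siNT2. Knockdowns ran for 72 h, and both groups grew in RPMI medium with fetal bovine serum. RMS13 is 1 line, and nothing in the labels says that the replicates were separate cultures, so p-values measure the spread between these libraries only. Values are normalised read counts, which are read counts divided by 1 size factor per library.

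Dystrophin, the product of DMD, is a long rod inside the muscle cell that ties the actin cytoskeleton to the membrane. There it binds dystroglycan, encoded by DAG1, whose outer subunit holds laminin in the basement membrane. Sarcoglycans are single-pass membrane proteins that assemble beside dystroglycan, syntrophins such as the product of SNTB1 bind the tail of dystrophin and recruit signalling proteins, and caveolin-3, from CAV3, shapes the caveolae of muscle. Loss of dystrophin or of single sarcoglycans causes muscular dystrophy in humans. GLI1 is a zinc finger transcription factor at the end of the Hedgehog pathway.

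Promoter sequences of the members are shown because the results turn on which of them rose together. They come from RefSeq on GRCh38.p14 and run from 250 bases before to 50 bases after an annotated start. The table held 12 such windows for 5 of the 8 members, and 5 windows are shown, 1 each for SGCD, SGCB, DAG1, DMD and CAV3. SGCA, SGCE and SNTB1 are named only. Capitals mark the E-box CANNTG, the core bound by myogenic basic helix-loop-helix factors, which reads the same on both strands.
SGCD, chr5:156326914-156327213, plus strand: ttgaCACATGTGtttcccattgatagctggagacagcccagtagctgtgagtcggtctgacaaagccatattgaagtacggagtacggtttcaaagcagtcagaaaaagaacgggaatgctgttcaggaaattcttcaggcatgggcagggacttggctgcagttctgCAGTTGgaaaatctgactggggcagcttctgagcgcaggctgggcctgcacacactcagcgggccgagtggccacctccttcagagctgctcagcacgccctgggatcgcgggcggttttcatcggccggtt
SGCB, chr4:52038250-52038549, minus strand: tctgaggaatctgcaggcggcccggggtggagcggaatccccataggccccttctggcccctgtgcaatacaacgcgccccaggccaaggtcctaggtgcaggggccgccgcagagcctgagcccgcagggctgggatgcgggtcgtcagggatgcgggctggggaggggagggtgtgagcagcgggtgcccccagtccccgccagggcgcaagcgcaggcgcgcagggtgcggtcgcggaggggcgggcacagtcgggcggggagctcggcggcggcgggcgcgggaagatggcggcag
DAG1, chr3:49469882-49470181, plus strand: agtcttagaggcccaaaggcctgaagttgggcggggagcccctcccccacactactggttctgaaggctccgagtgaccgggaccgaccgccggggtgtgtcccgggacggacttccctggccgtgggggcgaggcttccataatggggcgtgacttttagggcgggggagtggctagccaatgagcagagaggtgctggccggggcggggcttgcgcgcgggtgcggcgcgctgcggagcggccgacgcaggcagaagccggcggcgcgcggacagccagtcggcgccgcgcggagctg
DMD, start of the full-length muscle transcript, chrX:33211500-33211799, minus strand: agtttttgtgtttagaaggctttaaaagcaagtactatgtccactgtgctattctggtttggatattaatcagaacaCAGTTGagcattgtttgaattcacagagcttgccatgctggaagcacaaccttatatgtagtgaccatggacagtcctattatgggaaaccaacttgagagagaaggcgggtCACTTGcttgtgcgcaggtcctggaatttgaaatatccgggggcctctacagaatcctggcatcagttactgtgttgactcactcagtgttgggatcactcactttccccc
CAV3, chr3:8733552-8733851, plus strand: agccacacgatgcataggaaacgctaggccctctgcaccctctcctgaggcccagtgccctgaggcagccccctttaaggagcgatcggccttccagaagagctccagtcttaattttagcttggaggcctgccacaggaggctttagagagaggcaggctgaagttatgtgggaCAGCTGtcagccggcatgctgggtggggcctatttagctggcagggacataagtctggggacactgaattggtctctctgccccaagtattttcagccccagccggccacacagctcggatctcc

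The SGCD window held 3 E-boxes, which began 246, 244 and 82 bases before the start. The first 2 of these overlap. The DMD window held 2, at 173 and 61 bases before the start, and the CAV3 window held 1, at 75 bases. The SGCB and DAG1 windows held 0. Of all 35116 promoter windows of this length, 68.7% had at least 1 E-box, so a match is common. The CAV3 site was the variant CAGCTG, present in 17.9% of all windows. The GLI motif GACCACCCA, searched on both strands, was in 0 of the 12 member windows and in 0.236% of all windows. A missing match says only that these letters are not in the window.

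GLI1 was lowered in every siGLI1 library. Its normalised read counts were 579.9, 905.8 and 1274.1 in siGLI1 cells and 11962.5, 17836.9 and 12774.1 in siNT2 cells, so that the siGLI1 mean was 6.48% of the siNT2 mean. The libraries held 13673977 to 18947614 reads. Muscle identity was clear in both groups: MYOD1 lay between 14203 and 22293 in siGLI1 cells and between 15135 and 21238 in siNT2 cells, while the satellite cell markers MYF5 and PAX7 had at most 3 reads in any library. Libraries of 1 group differed in how strongly counts depended on transcript GC content. Over genes, Spearman's rho of GC content with how far a library lay from its group mean was 0.75 in siGLI1 replicate 3 and 0.71 in siNT2 replicate 2, and between -0.70 and -0.32 in the other 4 libraries. Fold changes of the complex genes and counts of genes called are also given without those 2 libraries. Single related genes, ratios between genes and shares of the sarcoglycan transcripts are not given without both.

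Of the 8 complex genes, 4 rose and 0 fell after GLI1 knockdown (adjusted p under 0.05 over all 15622 genes, limma with Benjamini-Hochberg adjustment). edgeR and DESeq2 on the recovered reads also gave 4 higher and 0 lower, as did limma at an unadjusted p under 0.05. For comparison, limma called 7.21% of all tested genes higher and 8.0% lower. Over all tested genes edgeR gave 1182 higher and 1200 lower, and DESeq2 1645 and 1634. The share of all genes at an unadjusted p under 0.05 is not given here, so counts at that threshold lack a background. The 4 that rose were SGCD, SNTB1, SGCB and DAG1. The other 4, DMD, SGCA, SGCE and CAV3, did not pass the test. In 5 of the 8 every siGLI1 library lay above every siNT2 library, a pattern found in 17.4% of tested genes. The median log2 fold change over the 8 was 0.51, beside -0.01 over all genes tested. The members were chosen with earlier results of these data known, so this count describes the complex and is not an independent test of it. The summed level of 8 mature striated muscle markers ran from 23824 to 49059 in siGLI1 cells and from 10607 to 16245 in siNT2 cells. That sum is mostly TTN, which was not called (1.05, adjusted p = 0.0727), and NEB, which rose (1.61, adjusted p = 0.00558). ACTA1, MYH2 and MYH7 also rose, CKM was not called (0.78, adjusted p = 0.098), MYH1 was not tested, and MB, for myoglobin, fell, with a mean of 61.7 in siGLI1 cells and 328.8 in siNT2 cells (log2 fold change -2.39, limma adjusted p = 0.000389). In bulk RNA, more cells of a type and more RNA per cell cannot be told apart, and the part of these markers in the results was not tested.

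**Figure D1:**
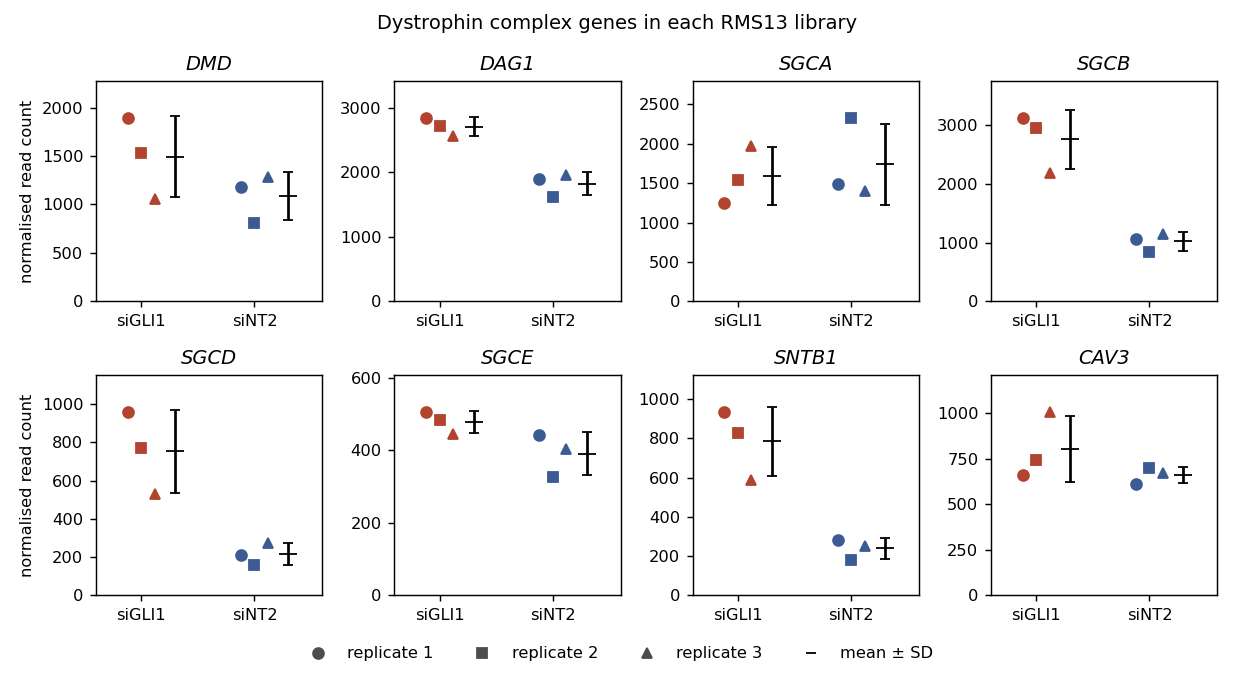
Normalised read count (vertical axes, linear and starting at 0) of each complex gene in the 3 siGLI1 and the 3 siNT2 libraries, one symbol per replicate, with the group mean ± SD in black. SGCD, SNTB1, SGCB, DAG1 and, narrowly, SGCE separate the groups, while DMD, SGCA and CAV3 overlap.

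The sarcoglycans did not move together. SGCD, which encodes delta-sarcoglycan (Entrez gene 6444), had 961.2, 767.8 and 528.4 normalised reads in siGLI1 cells, against 209.7, 157.2 and 274.3 in siNT2 cells. Its lowest siGLI1 library was still well above its highest siNT2 library. The mean was 752.4 ± 217 in siGLI1 cells and 213.8 ± 58.7 in siNT2 cells (SD, n = 3 each). This was a log2 fold change of 1.80 with a standard error of 0.28 (95% interval 1.16 to 2.45, adjusted p = 0.00635, limma), and the change was 3.49-fold.

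SGCB, which encodes beta-sarcoglycan (Entrez gene 6443), had 3131.8, 2956.6 and 2197.5 normalised reads in siGLI1 cells, against 1068.4, 837.7 and 1156.3 in siNT2 cells. The groups did not overlap. Beta- and delta-sarcoglycan form the core on which the sarcoglycan tetramer of muscle is built. SGCB rose 2.7-fold, a log2 fold change of 1.43 with standard error 0.19 (95% interval 0.99 to 1.87, limma adjusted p = 0.00357). The SGCB and SGCD calls held with any 1 library left out, with adjusted p at most 0.0306 for SGCB and 0.0443 for SGCD.

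SGCA, which encodes alpha-sarcoglycan (Entrez gene 6442), the sarcoglycan most confined to striated muscle, had 1249.5, 1538.6 and 1976.3 normalised reads in siGLI1 cells, against 1492.3, 2330.7 and 1399.5 in siNT2 cells. The groups overlapped. Its exons overlap the antisense gene AC015909.3, which has no value here. Its log2 fold change was -0.12 (95% interval -0.68 to 0.45, adjusted p = 0.773, limma), and the sign turned to 0.12 with the GC correction described below, to 0.04 without siGLI1 replicate 1 and to 0.11 without siNT2 replicate 2. SGCE, which encodes epsilon-sarcoglycan (Entrez gene 8910), a widely expressed relative of alpha-sarcoglycan, had 507.6, 484.6 and 446.4 normalised reads in siGLI1 cells, against 442.5, 326.6 and 404.3 in siNT2 cells. The groups were separate by a few reads. The log2 fold change of 0.30 (95% interval -0.07 to 0.67) did not pass the test (adjusted p = 0.239, limma). Exons of SGCE overlap those of PEG10 on the opposite strand. PEG10 had 11572 to 19637 normalised reads in siGLI1 cells and 9675 to 13383 in siNT2 cells, and whether reads were counted by strand is not given in the sources used here, so SGCE values are uncertain.

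SGCZ, which encodes zeta-sarcoglycan, had at most 1.98 normalised reads in any library. It is below the filter on low values, was not tested, and is named outside the rule for naming genes. Where no read was counted, as for SGCZ in 2 libraries, up to 3 reads remain possible, or 2.39 to 3.29 normalised reads.

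Because the genes rose unequally, the make-up of the sarcoglycan transcripts shifted. Per kilobase of the longest transcript with a RefSeq match, SGCA gave 44.4%, 51.3% and 63.2% of the summed SGCA, SGCB, SGCD and SGCE level in siGLI1 cells, against 67.0%, 80.6% and 65.3% in siNT2 cells. SGCB gave 35.9%, 31.8% and 22.7% in siGLI1 cells, against 15.5%, 9.37% and 17.4% in siNT2 cells. The SGCB shares separated the groups, as did the SGCA shares, though narrowly, at 63.2% in siGLI1 replicate 3 against 65.3% in siNT2 replicate 3. These shares were not corrected for GC content, which is 62.6% for SGCA and 39.5% for SGCB. Within its group the SGCA share was highest in siGLI1 replicate 3 and in siNT2 replicate 2, the libraries where counts rose with GC content. SGCE kept a similar part, with 13.1% ± 1.53 in siGLI1 cells and 13.6% ± 3.81 in siNT2 cells (SD, n = 3 each). SGCD gave 3.75% ± 1.27 in siGLI1 cells and 1.35% ± 0.54 in siNT2 cells (SD, n = 3 each). With the median transcript length in place of the longest, an alternative chosen after seeing the data, the SGCD means were 16.6% in siGLI1 cells and 6.33% in siNT2 cells, and the SGCE means 10.1% in siGLI1 cells and 10.9% in siNT2 cells.

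**Figure D2:**
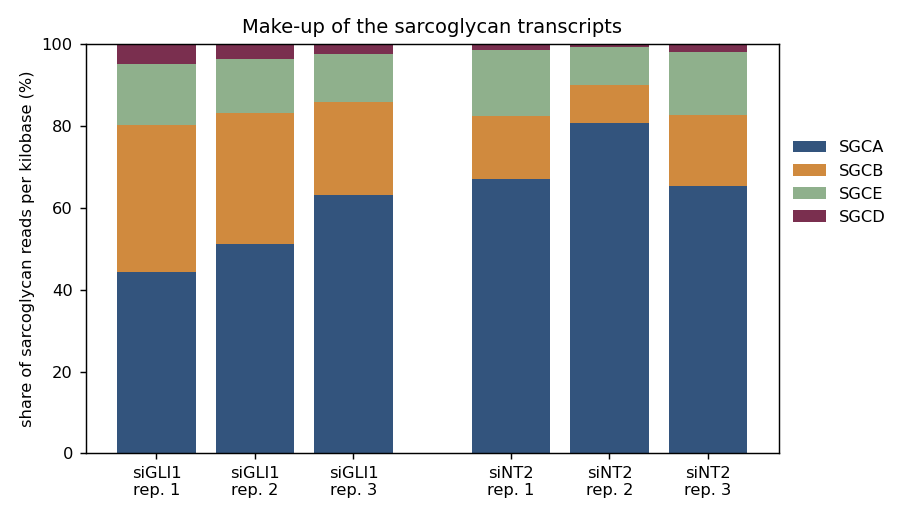
Share (percent, vertical axis) of each sarcoglycan gene in the summed reads per kilobase of SGCA, SGCB, SGCE and SGCD, with 1 stacked bar per library, the 3 siGLI1 libraries left of the 3 siNT2 libraries. The SGCB share was 22.7% to 35.9% in siGLI1 cells and 9.37% to 17.4% in siNT2 cells. Shares were not corrected for GC content.

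Ratios between genes within a library do not depend on the size factor, and 6 were compared by an exact permutation test over libraries, two-sided, whose smallest possible p is 0.1. The log2 ratio of SGCB to SGCE was 2.63, 2.61 and 2.3 in siGLI1 cells, against 1.27, 1.36 and 1.52 in siNT2 cells. The log2 ratio of SGCD to SGCE was 0.92, 0.66 and 0.24 in siGLI1 cells, against -1.08, -1.05 and -0.56 in siNT2 cells. These ratios rest on genes of similar GC content and separated the groups, with differences of 1.13 for SGCB to SGCE and 1.51 for SGCD to SGCE (exact permutation p = 0.1 for each, 0.15 adjusted over the 6 ratios). After GC correction the differences were 1.06 and 1.46. The log2 ratio of SGCB to SGCA differed by 1.55 (exact permutation p = 0.1, adjusted 0.15), and by 1.13 after GC correction. These 3 ratios were chosen after the members' values were seen. The log2 ratio of SGCA to SGCE was 1.70 ± 0.42 in siGLI1 cells and 2.13 ± 0.61 in siNT2 cells (SD, n = 3 each), with groups that overlapped (exact permutation p = 0.4, adjusted 0.4). Its difference of -0.42 shrank to -0.07 after GC correction and to -0.07 without siNT2 replicate 2.

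SNTB1, which encodes beta-1-syntrophin (Entrez gene 6641), had 937.4, 828.1 and 589.6 normalised reads in siGLI1 cells, against 283.3, 181.5 and 252.0 in siNT2 cells. Every siGLI1 library was more than 2-fold above every siNT2 library. It rose 3.27-fold, a log2 fold change of 1.71 with standard error 0.23 (95% interval 1.16 to 2.25, limma adjusted p = 0.0042). The call held with any 1 library left out. Its exons overlap those of MTBP on the opposite strand. MTBP had 184.7 to 400.7 normalised reads in siGLI1 cells and 214.0 to 387.6 in siNT2 cells, ranges that overlap. The exons also overlap the antisense gene AC104958.2, which has no value here. The syntrophin genes SNTB2 and SNTG1, named outside the rule for naming genes, had log2 fold changes of 0.08 and 0.01 and were not called (adjusted p = 0.848 and 0.984, limma).

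DMD (Entrez gene 1756) had 1895.3, 1531.4 and 1057.8 normalised reads in siGLI1 cells, against 1177.1, 808.3 and 1281.5 in siNT2 cells. The lowest siGLI1 library lay below 2 of the siNT2 libraries. The log2 fold change of 0.44 (standard error 0.26, 95% interval -0.15 to 1.04) did not pass the test (adjusted p = 0.28, limma). Without siGLI1 replicate 3 and siNT2 replicate 2, the libraries with the opposite GC trend, DMD was called higher (0.47, adjusted p = 0.0283, limma), an alternative chosen after seeing the data and the one fit of 16 that called it. With 1 library left out, the value was 0.67 without siGLI1 replicate 3, 0.25 without siGLI1 replicate 1 and 0.24 without siNT2 replicate 2 (adjusted p = 0.0691, 0.585 and 0.582). Reads of the full-length protein's transcript and of the short transcripts started inside the gene cannot be told apart in a count per gene. UTRN, which encodes utrophin, a close relative of dystrophin, had 2968.8, 1928.1 and 1375.8 normalised reads in siGLI1 cells, against 1940.3, 1096.4 and 2102.0 in siNT2 cells. Its log2 fold change was 0.27 (adjusted p = 0.615, limma). The log2 ratio of DMD to UTRN was -0.45 ± 0.17 in siGLI1 cells and -0.62 ± 0.16 in siNT2 cells (SD, n = 3 each; exact permutation p = 0.2, adjusted 0.24).

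DAG1 (Entrez gene 1605) had 2843.5, 2713.2 and 2558.0 normalised reads in siGLI1 cells, against 1893.1, 1622.7 and 1955.3 in siNT2 cells. The groups were apart and the libraries of each close together. DAG1 rose 1.49-fold, a log2 fold change of 0.57 with standard error 0.13 (95% interval 0.27 to 0.87, limma adjusted p = 0.0248). Although the size stayed between 0.49 and 0.62 when 1 library was left out, the call held only without siGLI1 replicate 3, and adjusted p was 0.0515 without siNT2 replicate 3, 0.0666 without siNT2 replicate 2, 0.0792 without siGLI1 replicate 1, 0.0941 without siNT2 replicate 1 and 0.121 without siGLI1 replicate 2.

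CAV3 (Entrez gene 859) had 658.8, 744.3 and 1008.4 normalised reads in siGLI1 cells, against 610.5, 695.7 and 672.2 in siNT2 cells. One siGLI1 library was high and another lay within the siNT2 values. The log2 fold change of 0.26 (95% interval -0.16 to 0.68) did not pass the test (adjusted p = 0.36, limma). It was 0.09 without siGLI1 replicate 3 and 0.40 without siGLI1 replicate 1, the range over the 6 fits with a library left out. CAV1, which encodes the widely expressed caveolin-1, had 726.8, 812.7 and 732.8 normalised reads in siGLI1 cells, against 378.8, 336.7 and 476.9 in siNT2 cells, and rose by 0.94 (adjusted p = 0.0106, limma). The CAV1 groups did not overlap. The log2 ratio of CAV3 to CAV1 was 0.06 ± 0.34 in siGLI1 cells and 0.74 ± 0.28 in siNT2 cells (SD, n = 3 each), with a difference of -0.68 (exact permutation p = 0.1, adjusted 0.15).

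The order of the libraries within a group differed between genes of low and high GC content, with DAG1 as an exception. In siGLI1 cells DMD, DAG1, SGCB, SGCD, SGCE and SNTB1 were highest in replicate 1 and lowest in replicate 3, while SGCA and CAV3 ran the other way. In siNT2 cells those same 6 genes were lowest in replicate 2, where SGCA and CAV3 were highest. Transcript GC content was 39.5% for SGCB, 40.9% for SGCD, 42.3% for DMD, 43.6% for SNTB1, 44.0% for SGCE, 55.1% for DAG1, 55.1% for CAV3 and 62.6% for SGCA. A smooth GC trend was therefore removed from each library as an alternative. The spread of SGCA on the log2 scale then shrank to 0.03 in siGLI1 cells and 0.17 in siNT2 cells, against 0.66 in siGLI1 cells and 0.74 in siNT2 cells before. That of SGCB shrank to 0.11 in siGLI1 cells and 0.03 in siNT2 cells, against 0.51 in siGLI1 cells and 0.46 in siNT2 cells. DAG1, whose GC content is close to that of CAV3 but whose siGLI1 libraries ran the other way, did the reverse, with a spread of 0.41 in siGLI1 cells and 0.48 in siNT2 cells after the correction, against 0.15 in siGLI1 cells and 0.27 in siNT2 cells. The spread of CAV3 in siNT2 cells also widened slightly, to 0.20, against 0.19 before.

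With the GC trend removed, 5 of the 8 complex genes were called higher, in a fit that called 16.7% of 14438 genes higher. The log2 fold changes were 1.64 for SGCD, 1.59 for SNTB1, 1.24 for SGCB and 0.66 for DAG1 (adjusted p at most 0.00956, limma). CAV3 was the added call, at 0.35 (95% interval 0.09 to 0.62, adjusted p = 0.0466, limma). DMD was at 0.30 (95% interval 0.01 to 0.60, adjusted p = 0.104), SGCE at 0.19 (95% interval -0.05 to 0.43, adjusted p = 0.205) and SGCA at 0.12 (95% interval -0.08 to 0.31, adjusted p = 0.34). Lower bounds of the 95% intervals were 1.32 for SGCD, 1.28 for SNTB1 and 1.06 for SGCB. Leaving out siGLI1 replicate 3 and siNT2 replicate 2 instead gave log2 fold changes of 1.84 for SGCD, 1.72 for SNTB1, 1.45 for SGCB and 0.53 for DAG1 (limma adjusted p at most 0.00814). The same fit gave 0.23 for SGCE, 0.13 for CAV3 and -0.06 for SGCA, none of them called (adjusted p = 0.257, 0.529 and 0.779).

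**Figure D3:**
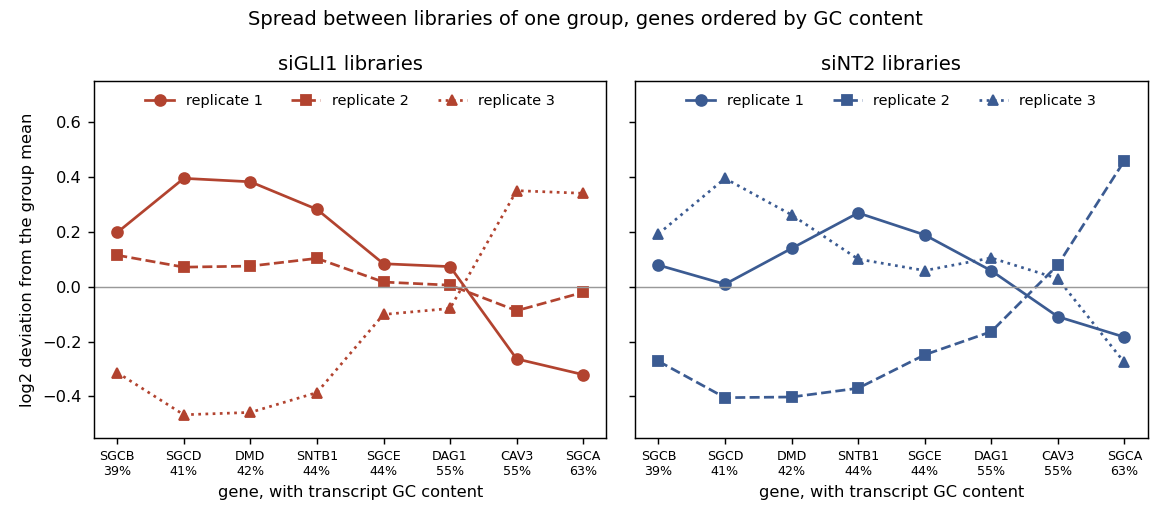
Deviation of each library from its group mean (log2, vertical axis) for the 8 complex genes, ordered from low to high transcript GC content, with the siGLI1 libraries in the left panel and the siNT2 libraries in the right panel. The libraries spread at both ends of the GC range. Ranges in siGLI1 and siNT2 cells were 0.51 and 0.46 for SGCB and 0.66 and 0.74 for SGCA. Between DAG1 and CAV3 the order of the siGLI1 libraries turns over, and siNT2 replicate 2 moves from lowest to highest.

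**Figure D4:**
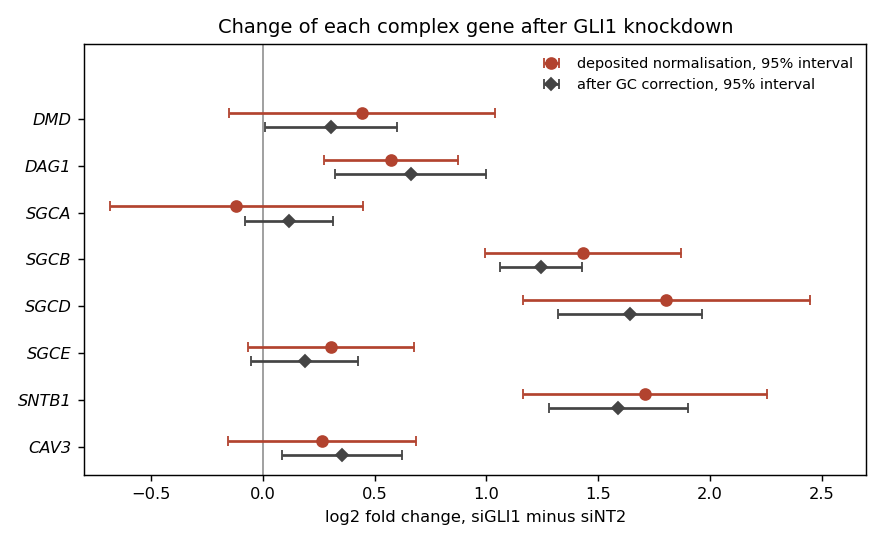
Log2 fold change of each complex gene, siGLI1 minus siNT2, with 95% intervals, from the deposited values (circles) and after GC correction (diamonds). SGCB, SGCD and SNTB1 stay above 0.9 on both scales, and SGCA moves across 0.

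Levels were ranked per kilobase of the longest transcript with a RefSeq match. In siGLI1 cells the order of mean normalised reads per kilobase was SGCA 1109, SGCB 623.3, CAV3 561.7, DAG1 464.0, SGCE 272.5, SNTB1 152.0, DMD 107.1 and SGCD 77.1. Ranges over libraries overlapped between the neighbours SGCB and CAV3, CAV3 and DAG1, SNTB1 and DMD, and DMD and SGCD. In siNT2 cells it was SGCA 1216, CAV3 460.9, DAG1 312.9, SGCB 230.4, SGCE 222.2, DMD 78.0, SNTB1 46.3 and SGCD 21.9. There only SGCB and SGCE overlapped among neighbours. SGCB ranked 2 in siGLI1 cells and 4 in siNT2 cells. The order depends on the transcript length taken. With the median length, an alternative chosen after seeing the data, SGCD moved to rank 5 in siGLI1 cells and 7 in siNT2 cells, SNTB1 to 8 in both groups, SGCE to 6 in siGLI1 cells and 4 in siNT2 cells, and SGCB to 5 in siNT2 cells. DMD kept its ranks of 7 in siGLI1 cells and 6 in siNT2 cells. On that length DMD reached 265.8 in siGLI1 cells and 193.7 in siNT2 cells, and SGCD 468.5 in siGLI1 cells and 133.1 in siNT2 cells.

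Other genes of the membrane complex were mostly not called. Of 13 listed partners 9 could be tested, and 1 rose and 0 fell by limma. These are 11.1% and 0%, beside 7.21% and 8.0% of all tested genes. Counts by edgeR and by DESeq2 were also 1 and 0, and at an unadjusted p under 0.05 they were 2 and 0. The median log2 fold change was 0.01. The one that rose was DRP2, which encodes a dystrophin-related protein. It had 497.9, 498.9 and 517.5 normalised reads in siGLI1 cells, against 320.6, 348.9 and 334.1 in siNT2 cells (log2 fold change 0.59, adjusted p = 0.0213, limma), and kept its call in 2 of the 6 fits with a library left out. NOS1, which encodes the neuronal nitric oxide synthase that syntrophin anchors in muscle, had 4152 ± 252 in siGLI1 cells and 4419 ± 513 in siNT2 cells (SD, n = 3 each), a log2 fold change of -0.08 (adjusted p = 0.699, limma). SNTG2, a syntrophin gene below the filter and named after its values were seen, had 2.16, 1.02 and 1.98 normalised reads in siGLI1 cells, against 12.1, 15.2 and 16.7 in siNT2 cells. Of 17 tested genes for the enzymes that glycosylate dystroglycan, 0 were called by limma or edgeR and 1 by DESeq2, 1 had an unadjusted p under 0.05, and the median was -0.07. The most abundant of them, POMGNT1 and POMT2, had log2 fold changes of -0.25 and -0.28 (adjusted p = 0.472 and 0.39).

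Ligands of dystroglycan changed in both directions. Of 10 tested, 2 rose and 3 fell by limma, with a median of -0.11. These are 20% and 30%, beside 7.21% and 8.0% of all tested genes. edgeR gave 2 higher and 2 lower, and DESeq2 2 and 4. LAMA5, the laminin alpha 5 chain, had 5432, 9276 and 14158 normalised reads in siGLI1 cells, against 3569.9, 4908 and 3499.9 in siNT2 cells (log2 fold change 1.18, adjusted p = 0.0492, limma). LAMC1, the laminin gamma 1 chain, rose by 0.93 (adjusted p = 0.0465). HSPG2, which encodes the basement membrane proteoglycan perlecan, had 6436, 10117 and 13699.6 in siGLI1 cells, against 15348, 29583.5 and 21442 in siNT2 cells (log2 fold change -1.15, adjusted p = 0.0491). LAMB1 fell by 0.68 (adjusted p = 0.00825) and LAMA4 by 0.75 (adjusted p = 0.0148). LAMB2, the laminin beta 2 chain, was not called (log2 fold change 0.17, adjusted p = 0.787). AGRN, for agrin, which clusters acetylcholine receptors at the neuromuscular junction, had 435.2, 672.7 and 1024.2 normalised reads in siGLI1 cells, against 1044.3, 1900.6 and 1261.5 in siNT2 cells. The AGRN groups did not overlap, and its log2 fold change of -1.02 missed the threshold with limma (adjusted p = 0.0814) and edgeR (adjusted p = 0.0921). AGRN was called lower by DESeq2 (adjusted p = 0.0286) and by limma after GC correction (-0.67, adjusted p = 0.00391). With each library left out in turn, LAMA5 and HSPG2 kept their calls in 1 of 6 fits, LAMC1 in 2, LAMA4 in 3 and LAMB1 in 4. With edgeR, HSPG2 was not called (adjusted p = 0.052).

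Of 20 laminin-binding integrins and costamere links tested, 6 rose and 0 fell by limma, with a median of 0.24. These are 30% and 0%, beside 7.21% and 8.0% of all tested genes. edgeR called 6 and 0, DESeq2 7 and 0, and at an unadjusted p under 0.05 the counts were 8 higher and 2 lower. ANK2, the gene for ankyrin-B, which in mice helps place dystrophin and dystroglycan at the membrane, had 7362, 5898 and 4567 normalised reads in siGLI1 cells, against 2875, 2198 and 2931 in siNT2 cells (log2 fold change 1.14, adjusted p = 0.0111, limma). ANK3, for ankyrin-G, rose by 1.05 (adjusted p = 0.0128). DES, for the muscle intermediate filament desmin, rose by 0.97 (adjusted p = 0.0153), ITGA6 and ITGA3, for laminin-binding integrin chains, by 1.11 and 1.34 (adjusted p = 0.0325 and 0.0319), and the adaptor gene GRB2 by 0.52 (adjusted p = 0.0237). PLEC, for the linker plectin, and TLN1, for talin-1, had log2 fold changes of -0.28 and 0.21 and were not called. When 1 library was left out, ANK2 and DES were called in 5 of the 6 fits, ANK3 in 4, ITGA3 in 2, and ITGA6 and GRB2 in 1.

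Of 19 genes of caveolae and membrane repair tested, 3 rose and 1 fell by limma, with a median of 0.38. These are 15.8% and 5.26%, beside 7.21% and 8.0% of all tested genes. edgeR gave 3 higher and 0 lower, and DESeq2 6 and 1. CAVIN2, which encodes a coat protein of caveolae, had 318.6, 325.1 and 232.1 normalised reads in siGLI1 cells, against 73.6, 47.7 and 98.9 in siNT2 cells. It rose by 2.02 (adjusted p = 0.00455, limma), more than any complex gene. DYSF, for dysferlin, a membrane repair protein whose loss causes limb-girdle dystrophy, had 2055, 2341 and 3113 in siGLI1 cells, against 814.8, 898.6 and 1000.8 in siNT2 cells, and rose by 1.45 (adjusted p = 0.00285). Both calls held in all 6 fits that left out a library. CAV1 was the third, called in 4 of them. S100A10, the annexin A2 partner, fell by 1.06 (adjusted p = 0.0461), a call kept in 1 of them and not made by edgeR (adjusted p = 0.0555). ANXA6 and ANXA5, annexins that gather at torn membrane, had log2 fold changes of -0.21 and 0.38 (adjusted p = 0.311 and 0.0707).

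**Figure D5:**
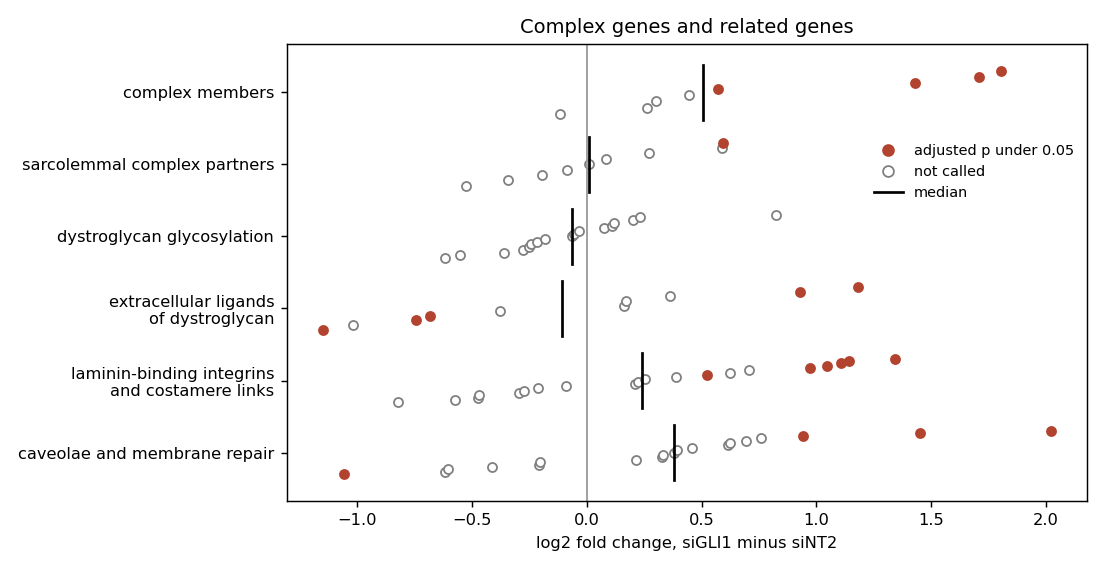
Log2 fold change, siGLI1 minus siNT2, of the 8 complex genes and of the tested genes in 5 lists of related genes, 1 point per gene, filled where adjusted p was under 0.05, with the median of each list as a black line. The complex genes have a median of 0.51 and the genes for dystroglycan glycosylation one of -0.07 with no filled point.

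Over the 5 lists, 12 of 75 tested genes rose and 4 fell (16.0% and 5.33%), beside 7.21% and 8.0% of all tested genes, with a median log2 fold change of 0.11. Without siGLI1 replicate 2 the counts were 3 higher and 0 lower, in a fit that called 283 of all genes higher and 358 lower. Without siNT2 replicate 1 they were 3 and 0, in a fit that called 414 of all genes higher and 449 lower. After GC correction they stood at 25 higher and 10 lower, in a fit that called 16.7% of all genes higher and 17.5% lower. Other marker lists were summed in the same way. The 12 skeletal muscle and rhabdomyosarcoma markers ran from 89258 to 141015 in siGLI1 cells and from 68300 to 90694 in siNT2 cells. Within that sum ACTC1 had a mean of 38210 in siGLI1 cells and 12390 in siNT2 cells. ACTC1, DES, CHRNA1, MYMK, MYH3 and TNNT2 rose, while MYOD1, MYOG, CDH15 and FGFR4 were not called. MYF5 and PAX7 were too low to test. Summed markers of smooth muscle, a list that also holds DES, ran from 9219 to 13647 in siGLI1 cells and from 5101 to 7598 in siNT2 cells. DES makes up most of that sum (mean 8429 in siGLI1 cells and 4272 in siNT2 cells), CNN1 rose, and ACTA2, TAGLN, MYH11 and SMTN were not called, the first 3 of them with negative log2 fold changes. Summed markers of fibroblasts ran from 1064 to 1203 in siGLI1 cells and from 1016 to 1411 in siNT2 cells. COL1A2 and LUM rose, by 2.79 and 0.96 (limma adjusted p = 0.00593 and 0.0484). COL1A1, COL3A1, PDGFRA and THY1 were not called, and DCN was too low to test. Endothelial markers summed to 204.5 to 239.0 in siGLI1 cells and 137.3 to 147.5 in siNT2 cells. Of these PECAM1 rose, with a mean of 86.3 in siGLI1 cells and 11.0 in siNT2 cells (limma adjusted p = 0.00226), while CLDN5 and TEK were not called and CDH5, KDR and VWF were too low to test. Blood markers summed to 44.3 to 112.6 in siGLI1 cells and 24.2 to 27.9 in siNT2 cells, with HBB at 0 in all libraries. Among them ITGAM rose, with a mean of 46.7 in siGLI1 cells and 10.5 in siNT2 cells (limma adjusted p = 0.0189). CD14 was not called, and the rest were too low to test. Epithelial markers summed to 29.6 to 41.0 in siGLI1 cells and 53.8 to 60.6 in siNT2 cells, with 6 of the 7 genes at 3 reads or fewer in every library, and neural markers to 764.6 to 1248.4 in siGLI1 cells and 932.2 to 1379.3 in siNT2 cells, with SNAP25 at 0.

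The genes most like DMD across the 6 libraries, among 12658 genes with a mean of at least 50, were WWC2, RBM27 and ANKRD26. Likeness was Pearson's r of log2 values, and was 0.9997 for WWC2, 0.9993 for RBM27 and 0.9991 for ANKRD26. Transcript GC content was 43.1% for WWC2, 39.8% for RBM27 and 37.0% for ANKRD26, low as for DMD (42.3%). The GC trend differed between libraries, and its part in these r values was not tested. None of the 3 was called. The genes most like DAG1 were LARP1, CORO1C and RTN4, with r of 0.9992, 0.9991 and 0.9987. They were called higher at 0.57, 1.29 and 0.44 on the log2 scale (adjusted p = 0.0206, 0.00473 and 0.0455, limma). Because both sets were picked by likeness over the same 6 libraries, whether these genes were called follows largely from the pick. SGCB, SNTB1 and SGCD stood at places 56, 96 and 109 of the ranking for DAG1, and DMD at place 2387. Since SGCB, SNTB1, SGCD and DAG1 were all called higher in these same libraries, the high places follow in part from that shared group difference. In the ranking for DMD no other complex gene stood above place 2169, that of SGCE.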

How the data were processed

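Per the submitters' processing notes, Bowtie2 2.3.3.1 and build hg19 were used, with Trim Galore 0.4.5, featureCounts (Subread 1.6.4) and DESeq2 2.11.40.6. The authors deposited a table of 6 libraries in signal units: each gene's reads divided by a size factor. How strand was counted, and with which annotation, is not given in the sources used here. Bowtie2 does not split reads at introns, so reads on exon junctions can be lost; whether this differed between groups was not tested.

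Every deposited value was a whole multiple of 1 read (tolerance 0.01), and whole reads were recovered. RefSeq (GRCh38.p14) gave symbols to 23696 IDs (92.2%) and promoters. GENCODE 29 gave lengths, exon overlaps and GC content (92.4% of tested genes). The main test was limma 3.58.1 in R 4.3.3 with a mean-variance trend, on log2(value + 1), for genes with a mean of at least 10. Fold changes on this scale understate the change of low genes. edgeR 4.0.16 and DESeq2 1.42.0 on recovered reads, a pseudocount of 8, filters, TMM scaling, a GC correction (spline with 5 degrees of freedom), a replicate block and left-out libraries were alternatives. Scripts were tested on simulated data.

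Members and gene lists were chosen with earlier results of these data known. Named genes were the 8 members, GLI1, UTRN, CAV1, all called genes of each list (at most 6), its 2 most abundant uncalled genes, and the 3 genes most like DMD and DAG1. Intervals and floors cover counting error or the spread between libraries only. Some genes of the lists are not reported here by name.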

Additional observations from a re-analysis of the deposited data

How the results depend on the processing

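SGCB, SGCD and SNTB1 kept their direction and their call under all 16 alternatives, and SGCE stayed uncalled under all 16. DAG1 kept its direction under all 16 and lost its call in 6, namely 5 fits that left out a library and the replicate block (adjusted p = 0.107, limma). SGCA changed sign in 4, at 0.12 with the GC correction, 0.12 with the replicate block and GC correction, 0.04 without siGLI1 replicate 1 and 0.11 without siNT2 replicate 2, and was called in none; with 1 library left out it ran from -0.29 to 0.11. CAV3 was called in 1 (GC correction) and DMD in 1 (2 libraries left out). Complex genes called higher numbered 3 to 5, and 0 were lower, in every fit.

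Over all genes, the GC correction gave 2410 higher and 2526 lower, the replicate block 462 and 508, the replicate block with GC correction 1926 and 2021, and leaving out siGLI1 replicate 3 and siNT2 replicate 2, chosen after seeing the data, 2236 and 2356. Leaving out 1 library gave 283 to 1562 higher and 358 to 1705 lower. DESeq2 gave 1645 higher and 1634 lower. Among related genes, the GC correction gave 25 higher and 10 lower, the replicate block 4 and 1, and the block with GC correction 22 and 7. Leaving out the 2 libraries gave 16 higher and 11 lower. Lower genes numbered 2 with edgeR and 2 with a filter at a mean of 50. Leaving out 1 library gave 3 to 12 higher and 0 to 8 lower. The 6 ratios kept their direction under each alternative run. Per-kilobase levels of DMD, SGCA and SGCD moved with the median transcript length to 229.8, 1527.0 and 300.8, from 92.6, 1162.3 and 49.5 over the 6 libraries. Same-numbered libraries share the start of an ID in the labels, and the labels do not say what it marks. Deviations of same-numbered libraries correlated across genes at 0.49, -0.11 and -0.61. These deviations also follow each library's GC trend, so pairing was not shown and cannot be told from them, and the replicate block is given only as a setting.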
